A study of Mus musculus with 12 samples.

Results

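Positive acute-phase proteins are plasma proteins whose synthesis the liver raises during inflammation. Described here are 10 genes that code for such proteins or their close relatives, namely Saa1, Saa2, Saa3, Saa4, Orm1, Orm2, Lcn2, Apcs, Itih4 and Serpina3n. They were taken by gene symbol from the 55414 genes of a raw count table of mouse liver RNA. All 10 had enough reads to be tested, among 13857 genes tested. The rule that picks them uses symbols and no measured value, but it was set with earlier results of these data known.

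All 12 livers came from adult female C57BL/6J mice without a genetic alteration, and each mouse received 2 intraperitoneal injections. The first injection was NaCl (saline) or 300 mg/kg FeSO4 (iron sulfate, at a dose that leads to lethal shock). The second, given 6 h later, was PBS (phosphate-buffered saline) or 10 mg/kg DEX (dexamethasone, a synthetic glucocorticoid). Livers were taken 2 h after the second injection, 8 h after the first, from 3 mice in each of the NaCl/PBS, NaCl/DEX, FeSO4/PBS and FeSO4/DEX groups.

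In the acute-phase response, interleukin 6 and its relatives act on hepatocytes through gp130, JAK kinases and STAT3, while interleukin 1 and TNF act through NF-kB. The C/EBP factors join both routes at many acute-phase promoters. Glucocorticoids are known to act together with these cytokines on part of the genes. Serum amyloid A proteins travel on high-density lipoprotein, orosomucoids carry small lipophilic molecules in plasma, and lipocalin 2 binds bacterial siderophores and thereby withholds iron from bacteria.

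The Saa genes lie together on chromosome 7 of GRCm39 (mm39). Saa3 is at chr7:46361422-46365576, Saa4 at chr7:46377406-46382035 and Saa1 at chr7:46389916-46392547, all on the minus strand, and Saa2 is at chr7:46401214-46403737 on the plus strand. Orm1 (chr4:63261052-63272189) and Orm2 (chr4:63280686-63284115) are neighbours on the plus strand of chromosome 4. Lcn2 is at chr2:32274645-32278264, Apcs at chr1:172721528-172722611, Itih4 at chr14:30608378-30624310 and Serpina3n at chr12:104372810-104380597. The counts cover whole genes, and all 10 are annotated as protein coding.

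Saa1 and Saa2 are near copies, so their coding sequences are shown to let their separate counts be judged. Of the 366 coding bases without the stop codon, read from GRCm39, 18 differed and 95.1% were identical. Shown are coding bases 70 to 362, which hold all 18, counted from the A of the start codon, with the bases that differ in capitals.
Saa1: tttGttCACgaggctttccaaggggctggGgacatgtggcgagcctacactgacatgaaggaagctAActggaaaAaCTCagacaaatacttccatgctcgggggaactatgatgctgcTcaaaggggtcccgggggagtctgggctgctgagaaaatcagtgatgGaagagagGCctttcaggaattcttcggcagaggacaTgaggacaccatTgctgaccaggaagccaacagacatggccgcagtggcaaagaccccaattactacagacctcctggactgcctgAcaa
Saa2: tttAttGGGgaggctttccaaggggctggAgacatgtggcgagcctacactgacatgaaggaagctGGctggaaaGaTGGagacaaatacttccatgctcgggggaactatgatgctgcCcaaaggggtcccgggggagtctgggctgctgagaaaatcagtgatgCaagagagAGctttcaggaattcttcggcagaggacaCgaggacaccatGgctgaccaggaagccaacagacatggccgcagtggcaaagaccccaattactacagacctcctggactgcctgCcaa

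Reads were 100 bases long, and only reads with 1 place in the genome were counted. Of the 553 windows of that length in the main Saa2 transcript, 3 (0.5%) occur unchanged in an annotated transcript of Saa1, and of the 658 windows in the main Saa1 transcript 0 occur in another gene. Orm1 and Orm2 shared more, with 47 of 726 windows of Orm1 (6.5%) and 54 of 676 windows of Orm2 (8.0%) found in the other gene. Their coding sequences were 89.9% identical. Serpina3n shared 4 of 2152 windows (0.2%) with the pseudogene Serpina3e-ps, and the remaining 6 members shared 0. A read with a sequencing error can still go to the wrong copy, and Orm1 overlaps the gene model Gm11212 on the same strand, so the Orm1 and Orm2 counts are the least certain of the 10.

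Parts of the Saa1, Saa2, Orm2 and Saa4 promoters are shown for a C/EBP motif, since C/EBP factors act on this class of genes. The motif TTGCNNAA was searched on both strands from 250 bases before to 50 bases after the start of the main transcript. It was found in 6 of the 10 members (Saa1, Saa2, Saa4, Orm1, Orm2 and Lcn2) and in 10.7% of 21614 promoters of the same length. The stretches around the match are near copies in Saa1 and Saa2, and in Orm1 and Orm2, so the 6 matches are not independent. Each stretch below has 50 bases, written 5′ to 3′ on the strand of the gene, with the match in capitals.
Saa1, chr7:46392558-46392607, minus strand: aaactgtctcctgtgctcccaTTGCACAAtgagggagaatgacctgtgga
Saa2, chr7:46401053-46401102, plus strand: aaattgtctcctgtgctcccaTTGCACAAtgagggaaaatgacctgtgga
Orm2, chr4:63280545-63280594, plus strand: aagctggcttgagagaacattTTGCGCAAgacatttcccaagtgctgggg
Saa4, chr7:46382051-46382100, minus strand: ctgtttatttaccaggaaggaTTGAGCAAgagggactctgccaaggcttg

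In Saa4 the stretch holds the motif on the opposite strand, and Saa4 had a second match. An NF-kB motif (GGG, any 2 bases, then TTTCC) was found in 1 member, Serpina3n, against 1.77% of all promoters, and a STAT motif (TTCNNNGAA) in 1 member, Itih4, against 8.85%. A palindromic glucocorticoid response element (GNACA, any 3 bases, then TGTNC) was found in 0 members and in 0.38% of promoters. These matches describe letters only, and no binding was measured.

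The libraries held between 16335651 and 23827340 counts. All 10 hepatocyte markers were present in every group, with Alb highest among them. Of 10 members, the FeSO4/PBS library of mouse 1 had the highest value of its group in 10, while 39.1% of all genes tested were highest in it. That library also differed most from its group, with a chi-square per gene of 71.4 and 89.5 against the other FeSO4/PBS mice, where all other pairs of mice within a group lay between 18.3 and 37.0. In NaCl/PBS, mouse 2 was highest in 10 of 10 members (35.9% of all genes tested), and in NaCl/DEX, mouse 3 was lowest in 10 of 10 (35.4% of all genes tested). The plot of deviations by mouse shows these 3 livers. The members' LFCs after FeSO4 that were called are therefore given with and without FeSO4/PBS mouse 1.

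**Figure D1:**
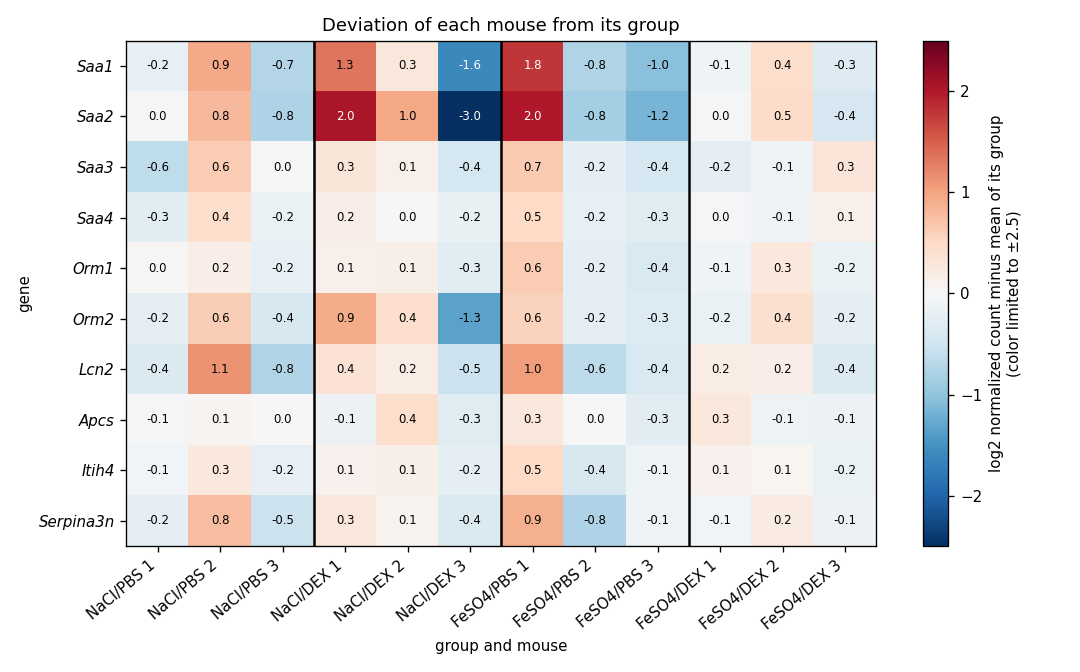
Deviation of each of the 12 mice (columns) from the mean of its own group on the log2 scale of normalized counts, for the 10 genes (rows); red is above and blue below the group mean. FeSO4/PBS mouse 1 and NaCl/PBS mouse 2 are highest in their groups for all 10 genes, and NaCl/DEX mouse 3 is lowest for all 10.

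Values per mouse are normalized counts, that is counts scaled with TMM factors to a library of 19810818 counts. Fold changes are log2 fold changes (LFC) ± SE from edgeR's quasi-likelihood test with n = 3 mice per group, and a gene was called when its Benjamini-Hochberg adjusted p over all 13857 genes tested (FDR) was 0.05 or less. The labels do not say whether mice of a group shared a litter or cage.

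FeSO4 without DEX raised 5 of the 10 genes, Saa1, Saa2, Orm1, Lcn2 and Serpina3n, and lowered Saa4 and Apcs. Saa3, Orm2 and Itih4 did not pass the test. The size ran from an LFC of 3.88 for Lcn2 to -1.88 for Saa4. Of all genes tested, 27.2% were called higher and 27.3% lower in this comparison, so 2 of 10 lower is near the background. The median LFC of the 10 genes was 0.84, against -0.02 over all genes tested.

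**Figure D2:**
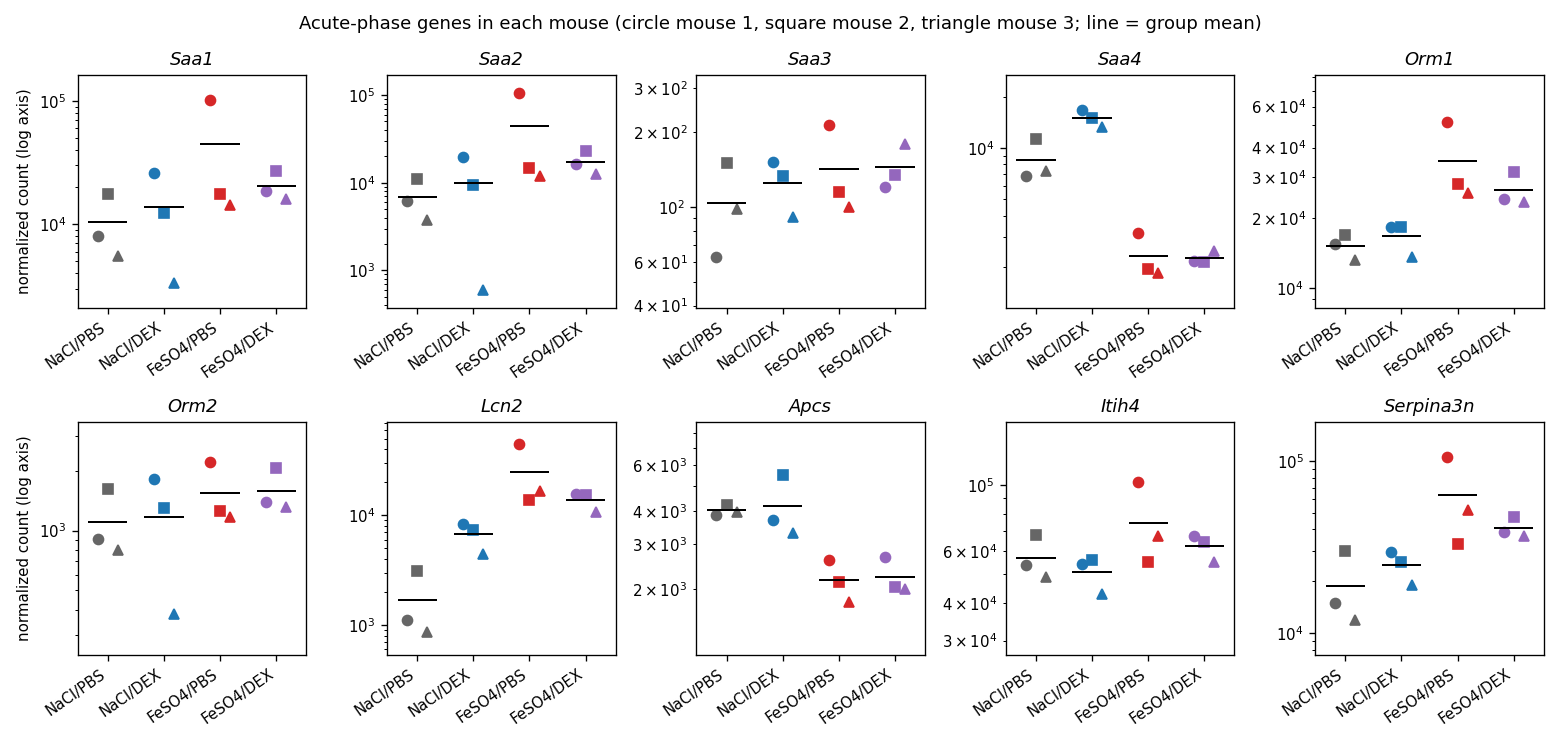
Normalized counts (log axis) of the 10 genes in each mouse of the 4 groups; the symbol gives the mouse and the line the group mean. Lcn2, Orm1 and Serpina3n are higher and Saa4 and Apcs lower in all 3 FeSO4/PBS mice than in all 3 NaCl/PBS mice, whereas the high Saa1 and Saa2 means of FeSO4/PBS are set by mouse 1.

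Saa1 and Saa2 are the inducible serum amyloid A genes of the liver. In NaCl/PBS the 3 mice had 8065, 17707 and 5526 normalized counts of Saa1, and in FeSO4/PBS they had 101804, 17532 and 14363. FeSO4/PBS mouse 1 alone exceeded NaCl/PBS mouse 2, and the groups overlapped. The LFC of Saa1 was 2.10 ± 0.75 (FDR = 0.03, n = 3), and without FeSO4/PBS mouse 1 it was 0.61 with an FDR of 0.41. Saa2 had 6153, 11032 and 3718 normalized counts in NaCl/PBS and 106470, 14788 and 11839 in FeSO4/PBS. The lowest FeSO4/PBS mouse (11839) exceeded the highest NaCl/PBS mouse (11032) by a small margin. The LFC of Saa2 was 2.67 ± 0.96 (FDR = 0.03, n = 3), and 0.94 with an FDR of 0.35 without FeSO4/PBS mouse 1. The calls of both genes were also lost when NaCl/PBS mouse 1 or NaCl/PBS mouse 3 was left out, with FDRs of 0.09 and 0.1 for Saa1 and of 0.083 and 0.1 for Saa2. Added up as 1 gene, Saa1 and Saa2 had an LFC of 2.35 ± 0.82 (FDR = 0.026), and of 0.75 ± 0.65 (FDR = 0.35) without FeSO4/PBS mouse 1.

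Saa3 is made mainly outside hepatocytes, by macrophages and fat tissue among others, and was the lowest of the 10 genes. It had 62.6, 150.5 and 98.2 normalized counts in NaCl/PBS and 212.7, 115.0 and 99.5 in FeSO4/PBS. The groups overlapped, with an LFC of 0.47 ± 0.33 (FDR = 0.25).

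Saa4, the constitutive member of the family, went the other way. It had 6854, 11315 and 7348 normalized counts in NaCl/PBS and 3168, 1952 and 1829 in FeSO4/PBS. The groups did not overlap, with the highest FeSO4/PBS mouse under the lowest NaCl/PBS mouse. Saa4 fell by 1.88 ± 0.22 on the log2 scale (FDR = 9.9e-06), a 3.67-fold difference. The LFC was -2.17 without FeSO4/PBS mouse 1, in which Saa4 too was the highest of its group.

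Orm1 codes for the main orosomucoid (alpha-1-acid glycoprotein). Its normalized counts were 15462, 16817 and 13147 in NaCl/PBS and 51279, 27993 and 25466 in FeSO4/PBS. The groups did not overlap, and each FeSO4/PBS mouse exceeded the highest NaCl/PBS mouse. Orm1 rose by an LFC of 1.21 ± 0.23 (FDR = 0.00062, 2.31-fold), and the LFC was 0.82 (FDR = 0.00091) without FeSO4/PBS mouse 1. Orm2, its neighbour, had 904.8, 1616 and 798.2 normalized counts in NaCl/PBS and 2208, 1249 and 1171 in FeSO4/PBS, which overlap, with an LFC of 0.48 ± 0.43 (FDR = 0.36). The sum of Orm1, Orm2 and Orm3 had an LFC of 1.21 ± 0.23 (FDR = 0.00064), and of 0.85 ± 0.18 (FDR = 0.0013) without that mouse.

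Lcn2 changed most among the 10 genes. It had 1123, 3126 and 858.3 normalized counts in NaCl/PBS and 44701, 13900 and 16689 in FeSO4/PBS. The lowest FeSO4/PBS mouse was far above the highest NaCl/PBS mouse. The LFC was 3.88 ± 0.53 (FDR = 3.3e-05, 14.8-fold), and 3.17 (FDR = 3.9e-05) without FeSO4/PBS mouse 1. Without NaCl/PBS mouse 2, the highest Lcn2 value of its group, it was 4.66.

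Serpina3n, which codes for an inhibitor of serine proteases, had 14964, 29837 and 12020 normalized counts in NaCl/PBS and 105458, 33140 and 52094 in FeSO4/PBS. The groups did not overlap, although FeSO4/PBS mouse 2 was close to NaCl/PBS mouse 2. Serpina3n rose by an LFC of 1.75 ± 0.38 (FDR = 0.0015, 3.36-fold), and by 1.17 (FDR = 0.0067) without FeSO4/PBS mouse 1. Itih4, a heavy chain of the inter-alpha-trypsin inhibitor family, had 53810, 68035 and 49008 normalized counts in NaCl/PBS and 101685, 54953 and 67133 in FeSO4/PBS. The groups overlapped, with an LFC of 0.39 ± 0.20 (FDR = 0.12).

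Apcs codes for serum amyloid P component, a pentraxin and a main acute-phase protein of mice. It had 3876, 4240 and 3978 normalized counts in NaCl/PBS and 2605, 2138 and 1791 in FeSO4/PBS. The highest FeSO4/PBS mouse was well below the lowest NaCl/PBS mouse. Apcs fell by 0.89 ± 0.19 on the log2 scale (FDR = 0.0012, 1.85-fold), and the LFC was -1.03 without FeSO4/PBS mouse 1.

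In the whole set, 4 genes lay above and 2 below in every FeSO4/PBS mouse, where 29.0% and 31.0% of all genes tested did so. Without FeSO4/PBS mouse 1, 3 genes were called higher (Orm1, Lcn2 and Serpina3n) and 2 lower (Saa4 and Apcs). With all mice, 27.2% and 27.3% of all genes tested were called, and the shares without that mouse are not given here. The counts of 3 and 2 are therefore not read as a result about the members. The plot with each mouse left out shows that Saa1 and Saa2 were the only called members of this comparison that lost their call in it.

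**Figure D3:**
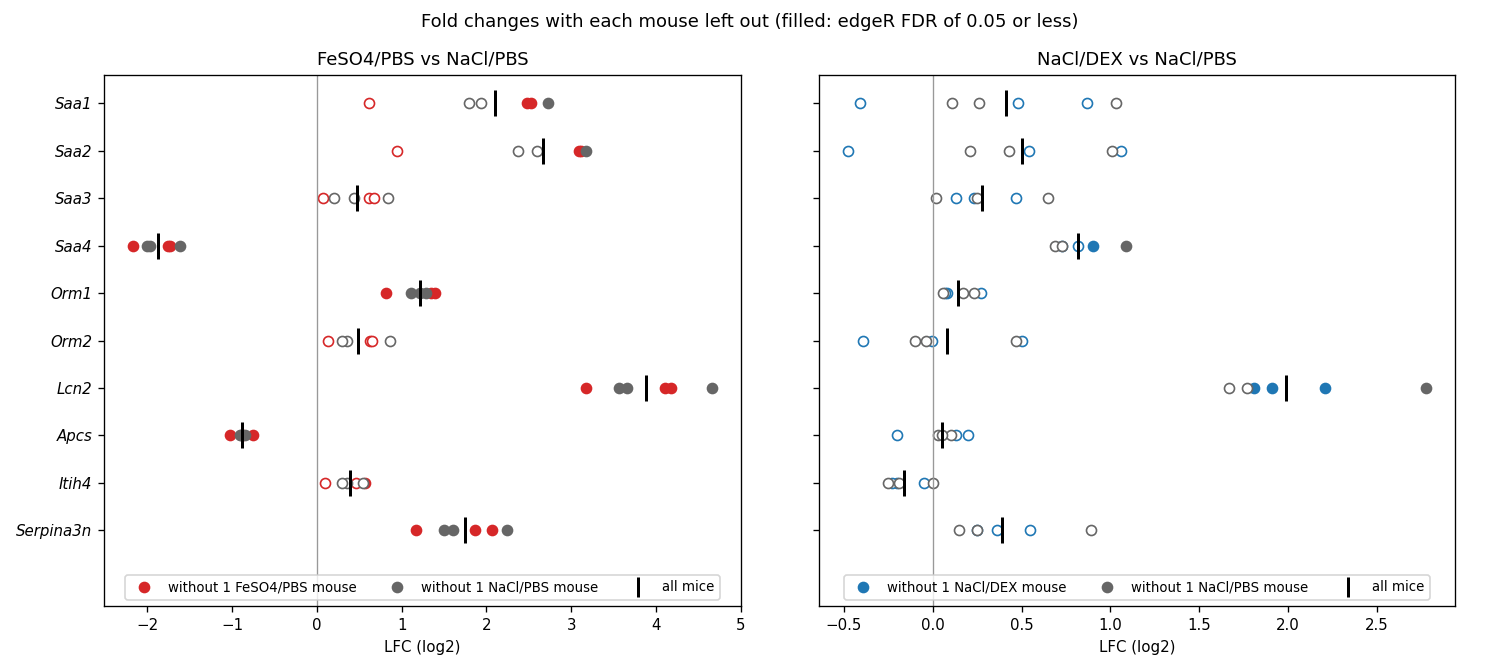
LFC of the 10 genes with all mice (black bar) and with each mouse of either group left out in turn (points, colored by the group that lost a mouse; filled where the edgeR FDR was 0.05 or less), for FeSO4/PBS against NaCl/PBS and for NaCl/DEX against NaCl/PBS. Saa1 drops from 2.10 to 0.61 and Saa2 from 2.67 to 0.94 without FeSO4/PBS mouse 1, while Lcn2 stays between 3.17 and 4.66.

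Between genes, levels were compared per kilobase of the main transcript. In NaCl/PBS, Itih4 (18527 ± 3219 normalized counts per kb, SD, n = 3) and Orm1 (18354 ± 2250) were highest and did not differ beyond their spread. Saa1 (13782 ± 8490) and Saa2 (10686 ± 5713) followed. Saa3, with 103.0 ± 43.9 per kb, was lowest. In FeSO4/PBS the highest means per kb belonged to Saa2 (68045 ± 82521) and Saa1 (58872 ± 65515), whose SDs exceeded their means. That order rested on mouse 1, since in the other 2 mice Orm1 (30867 to 33930 per kb) lay above Saa1 (18973 to 23160) and Saa2 (18158 to 22681). Lcn2 stood at 1861 ± 1355 per kb in NaCl/PBS and at 27428 ± 18617 in FeSO4/PBS. Together the 10 genes took between 0.52% of all counts, in NaCl/DEX mouse 3, and 2.35%, in FeSO4/PBS mouse 1.

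DEX alone raised Lcn2 and Saa4 and lowered 0 of the 10 genes, 2 h after its injection into NaCl mice. Of all genes tested, 6.5% were called higher and 7.15% lower. DESeq2 called 2 higher and 0 lower as well, and at an unadjusted p under 0.05 edgeR had 2 higher and 0 lower. Lcn2 had 8331, 7432 and 4457 normalized counts in NaCl/DEX, all above the highest NaCl/PBS mouse (3126). The LFC of Lcn2 was 1.99 ± 0.49 (FDR = 0.014, 3.96-fold). Saa4 had 16793, 14952 and 13198 normalized counts in NaCl/DEX, again above every NaCl/PBS mouse (11315 at most), with an LFC of 0.82 ± 0.22 (FDR = 0.021). Lcn2 and Saa4 were the only 2 members whose groups did not overlap, where 17.6% of all genes tested lay above and 20.3% below. Both calls depended on single mice. Without NaCl/PBS mouse 2 the LFC of Lcn2 was 2.78. The Lcn2 call was lost without NaCl/PBS mouse 1 (FDR = 0.068) or 3 (FDR = 0.064), and the Saa4 call without NaCl/DEX mouse 1 (FDR = 0.078) or 2 (FDR = 0.052) or NaCl/PBS mouse 1 (FDR = 0.097) or 3 (FDR = 0.093).

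The other 8 genes gave no call after DEX alone, and their LFCs lay between -0.16 for Itih4 and 0.50 for Saa2. For Saa2 and Orm2 the NaCl/DEX mice spread widely. Saa2 had 19602, 9381 and 596.0 normalized counts in NaCl/DEX, with mouse 3 the lowest of all 12 libraries. Saa1 had 25783, 12346 and 3342 normalized counts there, and Orm2 1826, 1298 and 379.6, also lowest in mouse 3. In this mouse 0.178 Saa2 reads were counted per Saa1 read, against 0.623 to 1.05 in the other 11 mice. With such a spread an LFC of 0.41 ± 0.73 for Saa1 or 0.50 ± 0.91 for Saa2 leaves room for large changes in either direction.

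After FeSO4, DEX gave 0 calls among the 10 genes and 0.0% higher and 0.0% lower among all genes tested with edgeR. DESeq2 called 0 of the 10 genes, and 5 higher and 5 lower among all genes tested. At an unadjusted p under 0.05 edgeR had 0 of the 10 genes, and 444 higher and 456 lower among all genes. Lcn2 had 15573, 15424 and 10681 normalized counts in FeSO4/DEX, against 44701, 13900 and 16689 in FeSO4/PBS, with an LFC of -0.85 ± 0.47 (FDR = 0.78). Saa1 had 18496, 27150 and 15987 in FeSO4/DEX, with an LFC against FeSO4/PBS of -1.12 ± 0.73 (FDR = 0.81). Saa2 had 16415, 23018 and 12483, with an LFC of -1.36 ± 0.92 (FDR = 0.82). All 3 genes were far higher in FeSO4/PBS mouse 1 than in the other FeSO4/PBS mice, and without it the LFC was 0.34 for Saa1, 0.36 for Saa2 and -0.16 for Lcn2. Serpina3n had 38843, 47188 and 36885 normalized counts in FeSO4/DEX and an LFC of -0.63 ± 0.37, or -0.08 without that mouse. Saa4 had 2174, 2119 and 2467 in FeSO4/DEX, within the range of FeSO4/PBS, with an LFC of -0.04 ± 0.22. Apcs had 2659, 2039 and 2015, with an LFC of 0.04 ± 0.19.

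The difference between the DEX effects after FeSO4 and after NaCl was tested as an interaction. It was called for Lcn2, with -2.84 ± 0.67 on the log2 scale (FDR = 0.023), and for 0 of the 10 genes in the other direction. In that direction edgeR at an unadjusted p under 0.05 and DESeq2 had 0 of the 10 too, and 1478 and 562 among all genes tested. Among all genes tested, 3.2% were called lower and 2.99% higher. Without FeSO4/PBS mouse 1 the value for Lcn2 was -2.16 (FDR = 0.033) and without NaCl/PBS mouse 2 it was -3.64, and the call was lost without FeSO4/DEX mouse 3 (FDR = 0.063), NaCl/DEX mouse 1 (FDR = 0.056), NaCl/PBS mouse 1 (FDR = 0.065) or NaCl/PBS mouse 3 (FDR = 0.054). For Saa4 the value was -0.86 ± 0.30 with an FDR of 0.12 in edgeR and of 0.048 in DESeq2.

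**Figure D4:**
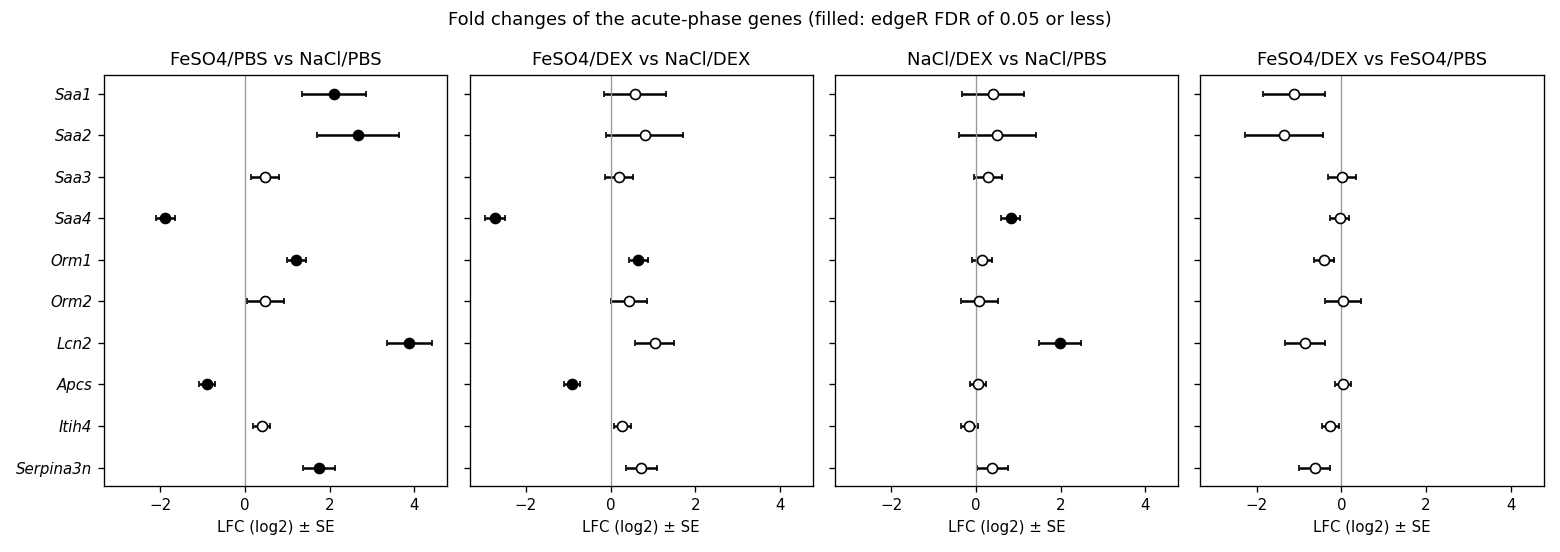
LFC ± SE of the 10 genes in the 4 comparisons of groups (n = 3 mice per group; filled where the edgeR FDR was 0.05 or less). Saa4 and Apcs lie left of 0 in both comparisons of FeSO4 with NaCl, Lcn2 and Saa4 lie right of 0 after DEX alone, and no point is filled for DEX after FeSO4.

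In mice that all received DEX, FeSO4 raised Orm1 and lowered Saa4 and Apcs, where 22.4% of all genes tested were called higher and 20.9% lower. This comparison uses other mice than FeSO4/PBS against NaCl/PBS. Saa4 fell by 2.73 ± 0.23 on the log2 scale (FDR = 7.5e-07, 6.65-fold), from 16793, 14952 and 13198 normalized counts in NaCl/DEX to 2174, 2119 and 2467 in FeSO4/DEX. Apcs had 3694, 5534 and 3295 in NaCl/DEX, all above FeSO4/DEX, and fell by 0.90 ± 0.19 (FDR = 0.0016). Orm1 had 18189, 18302 and 13609 in NaCl/DEX and 24138, 31382 and 23392 in FeSO4/DEX, without overlap. It rose by 0.66 ± 0.23 (FDR = 0.034), and this call was lost without any 1 of the 3 NaCl/DEX mice (FDRs of 0.051 to 0.13) or without FeSO4/DEX mouse 2 (FDR = 0.16). Lcn2 lay higher in every FeSO4/DEX mouse than in every NaCl/DEX mouse, but with an LFC of 1.04 ± 0.47 its FDR was 0.089, and 0.044 with the replicate number as a block. Serpina3n did not overlap either (29497, 25883 and 18949 in NaCl/DEX), with an LFC of 0.73 ± 0.37 (FDR = 0.13). When edgeR fitted only the groups compared, the LFC was 1.03 ± 0.22 for Lcn2 (FDR = 0.0035) and 0.71 ± 0.17 for Serpina3n (FDR = 0.0062). Above in every FeSO4/DEX mouse were 3 of the 10 genes and below 2, against 28.8% and 27.1% of all genes tested.

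Of 25 further positive acute-phase genes, 24 were tested. After FeSO4 alone 13 of them were called higher and 1 lower (all genes tested: 27.2% and 27.3%), with a median LFC of 0.74 against -0.02 over all genes tested. Higher calls numbered 10 without FeSO4/PBS mouse 1 and 9 with scaling by library size alone. The shares of all genes in those fits are not given here. Cd14, a co-receptor for lipopolysaccharide, had 53.2, 155.2 and 55.0 normalized counts in NaCl/PBS and 1183, 1644 and 1423 in FeSO4/PBS (LFC 4.03 ± 0.38). Orm3 (2.72 ± 0.34), Agt, which codes for angiotensinogen (2.63 ± 0.21), Steap4, a metalloreductase (2.12 ± 0.50), and Hamp, which codes for the iron hormone hepcidin (1.32 ± 0.33), also rose. Agt, Cd14 and Orm3 were not highest in FeSO4/PBS mouse 1. Steap4, with 41344, 11221 and 10474 normalized counts, and Hamp, with 56028, 34725 and 25888, were highest in it. Without that mouse the LFC was 1.17 ± 0.36 (FDR = 0.016) for Steap4 and 0.96 ± 0.32 (FDR = 0.021) for Hamp. The 1 gene called lower, named after its values were seen, was Crp (LFC -0.66 ± 0.21, FDR = 0.018), a pentraxin like Apcs. DEX alone raised 3 of the 24, Orm3 (1.61 ± 0.33), Il1rn (1.26 ± 0.32) and Serpina3m (0.97 ± 0.16), and lowered 0, where 6.5% and 7.15% of all genes were called. Serpina3m shares 2.8% of its windows with Serpina3k and is uncertain.

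The list of 12 negative acute-phase genes, which code for plasma proteins known to fall in inflammation, had 6 called higher and 1 lower after FeSO4 (all genes tested: 27.2% and 27.3%), but 0 higher with scaling by library size alone. That scaling moved the median LFC of all genes from -0.02 to -0.34. Igfals was the gene called lower (-0.66 ± 0.19), while Ttr (0.57 ± 0.13), F12 (0.53 ± 0.11), Itih2 (0.51 ± 0.11) and Apoa1 (0.41 ± 0.16) were called higher with TMM factors, of which Apoa1 lost its call without FeSO4/PBS mouse 1 (FDR = 0.067). Apoa1 was also the 1 gene of this list called after DEX alone (0.52 ± 0.16).

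Of the 8 cytokines that drive the response, 4 had enough reads to be tested. Osm and Lif, both of the interleukin 6 family, were called higher after FeSO4 and 0 lower (all genes tested: 27.2% and 27.3%). Osm and Lif passed the filter on low counts only through the FeSO4 groups, so their calls are not read as a result. Osm had 0, 0 and 0 reads in NaCl/PBS and 13, 13 and 5 in FeSO4/PBS. Lif had 0, 2 and 0 reads in NaCl/PBS and 11, 21 and 25 in FeSO4/PBS. Il6 was not tested and had 2, 5 and 2 reads in NaCl/PBS and 7, 15 and 5 in FeSO4/PBS. Tnf, also not tested, went the other way, with 5, 24 and 9 reads in NaCl/PBS and 4, 1 and 1 in FeSO4/PBS. Il11, not tested either, had 0, 0 and 0 reads in NaCl/PBS and 1, 4 and 3 in FeSO4/PBS. Il22 had 0 reads in all groups. Neither Il1a (LFC 0.46 ± 0.35, FDR = 0.29) nor Il1b (0.20 ± 0.57, FDR = 0.79) was called after FeSO4. Il1b fell after DEX alone, from 50, 227 and 35 reads in NaCl/PBS to 2, 3 and 0 in NaCl/DEX, and NaCl/PBS mouse 2, in which all 10 members were highest, had the most.

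Among 15 receptors and signal transducers, 8 were called higher and 2 lower after FeSO4, where 27.2% and 27.3% of all genes tested were called. Socs3, a feedback inhibitor induced by STAT3, had 193.5, 941.6 and 238.7 normalized counts in NaCl/PBS and 4442, 4277 and 3732 in FeSO4/PBS (LFC 3.19 ± 0.48). Here too NaCl/PBS mouse 2 was highest, but FeSO4/PBS mouse 1 stood close to its group. Il1r1, the interleukin 1 receptor (2.18 ± 0.28), Osmr, the oncostatin M receptor (1.74 ± 0.18), and Tnfrsf1a, the main TNF receptor (1.70 ± 0.15), rose, and the kinase Tyk2 fell by 1.90 ± 0.22. FeSO4/PBS mouse 1 stood apart in Tnfrsf1a (7144 normalized counts, against 4574 and 5124 in the other FeSO4/PBS mice) and in Tyk2 (98.8, against 183.1 and 229.6). That mouse stood closer to the others in Il1r1 (5860, against 4875 and 5754) and in Osmr (348.8, against 340.8 and 340.5). DEX alone raised 4 and lowered 2 of the 15, against 6.5% and 7.15% of all genes tested. Il1r1 (1.35 ± 0.28) and Il6ra (1.19 ± 0.13) rose, and Socs3 fell by 3.06 ± 0.53.

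Of 10 transcription factors of the response, 8 were called higher and 1 lower after FeSO4, beside 27.2% and 27.3% of all genes tested. With scaling by library size alone 5 were called higher, and the share of all genes with that scaling is not given here. Cebpd had 56.1, 199.2 and 94.8 normalized counts in NaCl/PBS and 1269, 1435 and 1564 in FeSO4/PBS (LFC 3.63 ± 0.31). Cebpb (2.08 ± 0.17), Nfkbiz (1.68 ± 0.35), Rela (1.64 ± 0.13) and Relb (1.00 ± 0.29) rose too. In Cebpd, FeSO4/PBS mouse 1 was the lowest of its group and close to the other 2. In Rela the same mouse was the highest, with 2318 normalized counts against 1897 and 1882. In Cebpb it lay between the others, with 4857 against 4591 and 4890. DEX alone raised 3 and lowered 3 of the 10 (all genes tested: 6.5% and 7.15%), with Cebpd at 1.49 ± 0.31, Cebpb at 1.29 ± 0.16 and Relb at -1.96 ± 0.34.

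**Figure D5:**
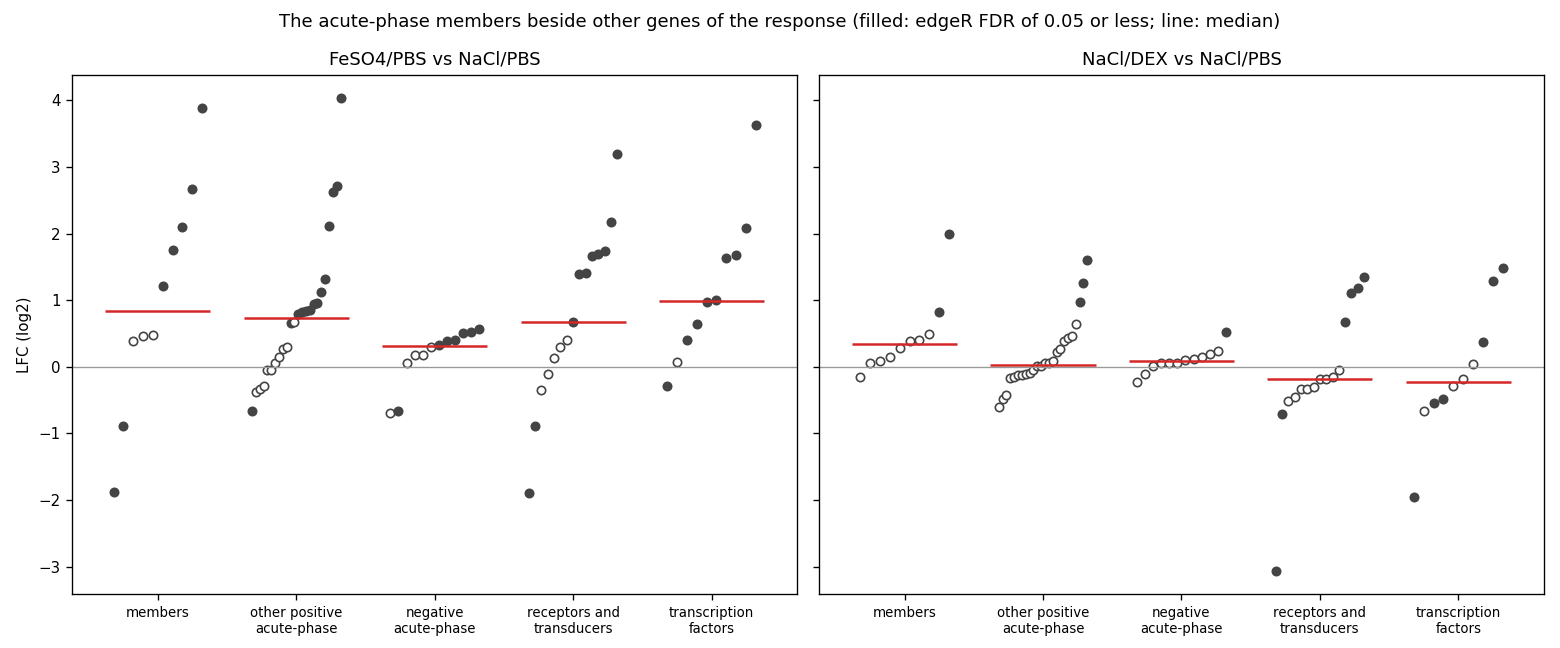
LFC of every tested gene in the 10 members and in 4 further lists, for FeSO4/PBS against NaCl/PBS and NaCl/DEX against NaCl/PBS (points; filled where the edgeR FDR was 0.05 or less; red lines give the median). After FeSO4 the medians are 0.84 for the members, 0.74 for the other positive genes, 0.31 for the negative genes, 0.67 for receptors and transducers and 0.99 for the factors.

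Whole livers were measured, so fewer cells of a type and less RNA per cell cannot be told apart. Of 14 neutrophil markers, 9 were tested, and 7 were called higher and 0 lower after FeSO4 (all genes tested: 27.2% and 27.3%). Markers this low without FeSO4, such as Ngp with 0 reads in NaCl/DEX, can pass the filter on low counts only through the FeSO4 groups. The neutrophil calls are therefore not read as a result. The summed normalized counts of the 14 ran from 142.2 to 334.8 in NaCl/PBS and from 961.6 to 1164 in FeSO4/PBS. Mpo was at 0 reads in both of these groups and Ltf in NaCl/PBS. Lcn2, which neutrophils also make, had 13900 or more normalized counts in every FeSO4/PBS mouse, and the part of the neutrophil genes in its rise was not tested. Of 12 macrophage markers 10 were called lower and 0 higher, with sums of 12199 to 13847 in NaCl/PBS and 7347 to 8355 in FeSO4/PBS. Of 5 adipocyte markers only Cidec had enough reads to be tested, and Lep was at 0 reads in all groups. Their sums were 5.75 to 25.2 in NaCl/PBS and 1449 to 1895 in FeSO4/PBS, nearly all of it Cidec, which codes for a lipid droplet protein. Of 7 stellate cell markers 2 were called higher and 2 lower, of 6 endothelial markers 2 higher and 2 lower, and of 3 tested mesothelial markers 0 higher and 1 lower, beside 27.2% and 27.3% of all genes tested, and with so few genes nothing is read from these counts. The part of the macrophage and adipocyte markers in the values of Saa3, which macrophages and fat tissue also express, was not tested. Within NaCl/PBS the neutrophil sum was 174.8, 334.8 and 142.2, highest in mouse 2. Within FeSO4/PBS the neutrophil sum was 1164, 1021 and 961.6, highest in mouse 1. Saa1 differed 7.09-fold between the same mice and was also highest in mouse 1. A link between the neutrophil sum and the members was not tested in either group.

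The 12 libraries fall into groups and therefore give high correlations easily, so likeness is given as a description. For each member, the most alike gene on log2 CPM was sought among the tested genes. Members, Gm and Rik genes and genes without a symbol were left out of the search. The most alike gene is given for the members other than Saa4. It was Lrg1 for Saa1 (Pearson's r = 0.916) and for Orm2 (0.846), a plasma glycoprotein that is itself an acute-phase protein. It was Rtca for Saa2 (0.901), Klhdc4 for Saa3 (0.889), Dnajc11 for Orm1 (0.976), Kti12 for Lcn2 (0.996), Gna14 for Apcs (0.959), Ube2o for Itih4 (0.955) and Pus1 for Serpina3n (0.978).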

How the data were processed

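Bulk RNAseq libraries (stranded mRNA, single-end) were made from 12 mouse livers in 4 groups of 3. According to the submitters' processing notes and the study's methods, the authors used FastQC for read quality, STAR 2.7.10b with the mm39 genome for mapping and counting, and DESeq2 for tests. The deposited values are raw counts per Ensembl gene, without normalization. STAR's gene counts take uniquely mapped reads, and which strand setting was used is not given in the sources used here. Symbols came from GENCODE vM39 for 54749 of 55414 genes.

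From these counts, edgeR 4.0.16 (R 4.3.3) fitted 1 mean per group to all 12 libraries (quasi-likelihood test) after filterByExpr (13857 genes) and TMM scaling, with a biological coefficient of variation of 0.169. Totals were 16335651 to 23827340 counts, and 3 mice per group limit the precision more than depth does. Mice of the same group differed beyond sampling noise (chi-square per gene of 18.3 to 89.5). The replicate numbers were not taken to pair mice across groups, which a check by correlation could not settle. Alternatives were DESeq2 1.42.0, other scalings and filters, a replicate block, only the groups compared, summed paralogs and each mouse left out. DESeq2 with independent filtering, and sums, list genes and levels per kb without FeSO4/PBS mouse 1, were added after seeing the data. Sequences were read from GRCm39 with Python 3.11.15.

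The 10 members and all lists were chosen with earlier results of these data known. Named were all members. From each further list, up to 5 genes with the largest LFC among those called after FeSO4 were named, and up to 3 after DEX alone. All 8 cytokines were named. Per member, the gene with the highest Pearson's r was named, with members, Gm and Rik genes left out of the search. Genes without a symbol were not named, and the gene most like Saa4 is not reported here.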

Additional observations from a re-analysis of the deposited data

Results flagged for a closer look

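By the interaction term of the edgeR quasi-likelihood model, the DEX effect differed between FeSO4 and NaCl mice for 1 of the 10 members. It did so for 10 genes of the further lists as well (difference of LFCs ± SE, n = 3 mice per group). Lower were 2 of 24 other positive genes, 3 of 15 receptors and transducers and 1 of 10 factors, against 3.2% of all genes tested. Higher were 1 of 4 cytokines, 1 of 15 receptors and transducers and 2 of 10 factors, against 2.99%. Of 12 negative genes 0 were called. For Lcn2 the difference was -2.84 ± 0.67 (FDR = 0.023), with an LFC after DEX of 1.99 in NaCl mice and of -0.85 in FeSO4 mice. Of the other acute-phase genes, Serpina3m had -1.01 ± 0.23 (FDR = 0.018) and Il1rn, the interleukin 1 receptor antagonist, -2.23 ± 0.46 (FDR = 0.011). Il1b had 4.70 ± 1.2 (FDR = 0.034), which rests on 2, 3 and 0 reads in NaCl/DEX.

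Among receptors and transducers, Il6ra had -1.10 ± 0.18 (FDR = 0.0022), Il1r1 -1.75 ± 0.39 (FDR = 0.016), Socs3 2.82 ± 0.68 (FDR = 0.025) and Nfkbia, the inhibitor of NF-kB, -0.96 ± 0.22 (FDR = 0.02). Among factors, Cebpa had 0.66 ± 0.16 (FDR = 0.026), Cebpb -1.10 ± 0.23 (FDR = 0.011) and Relb 1.89 ± 0.45 (FDR = 0.023). For each of these 11 genes, Lcn2 included, the LFC after DEX was smaller in size in FeSO4 mice than in NaCl mice. The genes were picked by the difference itself, so this is no separate result. The sign of the LFC after DEX also differed for Lcn2, Serpina3m, Il1rn, Il1r1 and Cebpa, but edgeR called no LFC after DEX in FeSO4 mice. There Serpina3m stood at -0.04 ± 0.16, Cebpa at 0.11 ± 0.11, Il1r1 at -0.40 ± 0.27 and Il1rn at -0.97 ± 0.33. Lcn2 stood at -0.16 without FeSO4/PBS mouse 1. The differences in sign are therefore not read as reversals. Of the cell type markers, Kdr (1.78 ± 0.43, FDR = 0.025) and Lyve1 (-2.13 ± 0.32, FDR = 0.0014), both endothelial, and Tat (-2.20 ± 0.26, FDR = 0.00025), of hepatocytes, were called too, and are named after their values were seen. Groups of 3 mice are too small for the test of single outlying samples, so FeSO4/PBS mouse 1 was not tested as one.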

How the results depend on the processing

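With 3 mice per group, single livers limit what can be said. Leaving out 1 mouse at a time, the number of members called higher after FeSO4 ran from 3 to 6 and lower from 2 to 2. After DEX alone higher calls ran from 0 to 2, in FeSO4/DEX against NaCl/DEX from 0 to 1, and lower calls in the interaction from 0 to 2. The shares of all genes called in these fits are not given here, so the ranges only describe how the members' calls moved. Of 360 LFCs with 1 mouse left out, 303 kept direction and side of the threshold, 20 lost and 2 gained a call, and 35 changed sign, none of them called with all mice.

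The ranges of those that changed sign were, for DEX alone, -0.41 to 1.03 (Saa1), -0.48 to 1.06 (Saa2), -0.39 to 0.50 (Orm2), -0.20 to 0.20 (Apcs) and -0.25 to 7.9e-05 (Itih4). For FeSO4/DEX against FeSO4/PBS they were -1.55 to 0.34 (Saa1), -1.82 to 0.36 (Saa2), -0.19 to 0.40 (Saa3), -0.19 to 0.23 (Saa4), -0.21 to 0.37 (Orm2), -0.11 to 0.17 (Apcs) and -0.44 to 0.004 (Itih4). For FeSO4/DEX against NaCl/DEX the range of Saa3 was -0.01 to 0.36. For the interaction they were -0.65 to 0.10 (Saa3), -0.46 to 0.43 (Orm2), -0.16 to 0.24 (Apcs) and -0.29 to 0.14 (Itih4).

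Requiring an LFC beyond 1 left 1 member lower after FeSO4, 1 higher after DEX alone, and 0 higher and 1 lower in FeSO4/DEX against NaCl/DEX. In that last comparison 0 were higher with library size alone, and 3 were when only the groups compared were fitted, Lcn2 and Serpina3n being added. DESeq2 called 2 lower in the interaction, also with independent filtering, where it called 747 and 735 among all genes. Library size alone left 0 negative acute-phase genes and 5 factors higher after FeSO4, and took the call from Saa1 (LFC 1.75, FDR = 0.054). Without a filter on low counts, 4 members were higher after DEX alone, 4 lower in FeSO4/DEX against FeSO4/PBS, 6 higher in FeSO4/DEX against NaCl/DEX and 5 lower in the interaction. The prior degrees of freedom were then infinite (5.93 with the filter), so that the spread of single genes no longer counted. DESeq2 aside, the shares of all genes called in these alternatives are not given here. The counts are therefore not read as a result about the members.

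Same-numbered mice deviated together in 2 of 18 pairs of libraries (correlation over 0.1, range -0.09 to 0.13). Both were between NaCl/PBS and NaCl/DEX (0.13 for mouse 1 and 0.11 for mouse 2). Such correlations cannot tell whether same-numbered mice shared a litter, cage or day, so no pairing was assumed. With the replicate block, 2 members were higher in FeSO4/DEX against NaCl/DEX, Lcn2 being added (LFC 1.08, FDR = 0.044). It changed no other call of a member but the sign of 4 small LFCs, to -0.17 (Saa2) and -0.05 (Orm2) after DEX alone and to 0.12 (Orm2) and 0.02 (Apcs) in the interaction.

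Other small LFCs that changed sign, none of them called, were Saa3 in FeSO4/DEX against FeSO4/PBS (-0.00065 with DESeq2, -0.00086 with independent filtering, -0.01 with its size factors and with library size alone). With library size alone they were Orm1 (-0.01), Orm2 (-0.07) and Apcs (-0.10) after DEX alone and Orm2 (0.08), Apcs (0.12) and Itih4 (0.02) in the interaction. With at least 10 counts in every library Apcs stood at 0.00055 in the interaction.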
